A study of Mus musculus with 46 samples.

Results

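The genes described here are 20 cytosolic aminoacyl-tRNA synthetases and 23 genes of the ATF4 programme, measured in single mouse ovarian follicles during the hours after an ovulatory stimulus. They were taken by name from the deposited tables, 43 of 25147 genes, and not by their values. The 23 comprise 10 regulators of the response, 6 enzymes of amino acid synthesis, 3 mitochondrial folate enzymes and 4 amino acid transporter subunits.

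Cytosolic aminoacyl-tRNA synthetases join each amino acid to its tRNA and so supply the ribosome. When eIF2 is phosphorylated by one of its kinases, as happens when amino acids run short or the endoplasmic reticulum is stressed, general translation slows while the mRNA of the transcription factor ATF4 is translated more. ATF4, paired with C/EBP proteins, binds composite C/EBP-ATF elements and raises genes of amino acid synthesis, uptake and tRNA charging. In the ovulating follicle the granulosa and cumulus cells build new protein and matrix within hours of the luteinizing hormone surge, which hCG, a ligand of the same receptor, replaces in culture.

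Follicles came from CD-1 mice and were grown singly in alginate beads for 8 days with rFSH. On the last day they were freed from the alginate and placed in medium with 1.5 IU/ml hCG, 10 ng/ml EGF, 10 mIU/ml rFSH and serum, so that every group carried the same culture history and the times differ by hours in that medium. Poly(A) RNA of one follicle per library was amplified by Smart-Seq2 and sequenced. Of the 46 libraries 9 were from 0 h, 13 each from 1 h and 4 h, and 11 from 8 h. No group was kept without hCG for the same hours, so time after hCG and time in the new medium cannot be told apart.

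The libraries came in 2 batches that the times do not share evenly: all 9 follicles at 0 h were in batch 2, all 11 at 8 h in batch 1, and at both 1 h and 4 h there were 10 follicles in batch 1 and 3 in batch 2. Within batch 1 the descriptions place the 1 h and 8 h libraries on one plate and the 4 h libraries on another, so plate and time cannot be told apart there. A second fit with a term for the 3 library sets (each plate, and batch 2) is cited as the fit with plate. There the fold changes between 0 h, 1 h and 4 h rest on batch 2 follicles alone, 3 at 1 h and 3 at 4 h. A fit of batch 2 alone uses the same follicles. Over all genes the calls went from 4733 to 2054 with plate at 4 h against 1 h, and from 3567 to 1446 at 8 h against 4 h. Where a call is lost there, plate and fewer follicles cannot be told apart. The labels do not say which follicles shared an animal, and p-values measure the spread between follicles. Total adjusted counts ran from 241442 to 5185044 per library. The median total was 3286107 for the 0 h follicles and 730895 for those at 1 h, and it was 1432395 and 1755429 at the later times. A block of 3332 genes, none of them among the 43, held counts in batch 1 but 0 in all batch 2 libraries after hCG, and took 22.6 to 46.2% of the counts of the 0 h libraries. The 6 granulosa markers (Foxl2, Fshr, Inha, Amh, Cyp19a1 and Nr5a2) summed to a median of 27600 CPM (counts scaled to a common library size) at 0 h and 13300 CPM at 8 h, against medians of at most 23.7 CPM for 6 oocyte markers. Amh was at 0 in batch 2 after hCG. Markers of theca and stroma were more variable, with a median of 538 CPM at 0 h, 1070 CPM in batch 1 at 1 h and 175 CPM at 8 h. The part of these marker shifts in the results was not tested, and fewer cells of a type cannot be told apart from less RNA per cell.

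Start regions were searched for the element through which ATF4 is known to act. The letters TGATGNAA, the common core of C/EBP-ATF composite elements, were searched on both strands of RefSeq promoter windows (GRCm38.p6, 250 bases before to 50 bases after each annotated start). Of the 43 genes 35 matched an entry, and 11 of these 35 (31.4%) held the letters, against 3.97% of all 32851 windows of that length. They were Aars, Gars, Iars, Tars and Yars among 13 synthetases with a window, and Nupr1, Trib3, Chac1, Asns, Pycr1 and Slc7a11 among 22 other genes. Stretches of 120 bases are printed for 4 genes outside the synthetases, chosen with their values in view because the text below turns on them, 5′ to 3′ on the strand of the gene with the matching letters in capitals. Their places are chr6:7693210-7693329 on the minus strand for Asns, chr3:50443614-50443733 on the minus strand for Slc7a11, chr2:119350992-119351111 on the plus strand for Chac1 and chr7:126625521-126625640 on the minus strand for Nupr1.
Asns: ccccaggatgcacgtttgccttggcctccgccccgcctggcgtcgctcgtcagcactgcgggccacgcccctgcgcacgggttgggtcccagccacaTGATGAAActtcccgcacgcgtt
Slc7a11: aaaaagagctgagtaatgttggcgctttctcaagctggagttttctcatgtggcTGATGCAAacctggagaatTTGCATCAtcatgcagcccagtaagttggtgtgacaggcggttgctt
Chac1: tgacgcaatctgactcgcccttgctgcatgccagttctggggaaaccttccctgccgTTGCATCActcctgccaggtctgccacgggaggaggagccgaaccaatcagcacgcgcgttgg
Nupr1: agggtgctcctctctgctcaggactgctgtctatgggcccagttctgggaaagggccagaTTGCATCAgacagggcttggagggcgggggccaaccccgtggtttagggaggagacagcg

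Slc7a11, which encodes the cystine transporter xCT, held 2 copies facing each other, at bases -66 and -47 from the start. The Asns copy lies at base -23 and is the core of its known nutrient-sensing response element. For 4 of the synthetases the matching letters are shown with 11 bases on either side, each read in the direction that gives TGATG, because different tRNA synthetase genes share this core close to their starts. They lie at chr6:55037960-55037989 (minus) for Gars, chr13:49682126-49682155 (minus) for Iars, chr15:11399655-11399684 (plus) for Tars and chr4:129189895-129189924 (plus) for Yars.
Gars: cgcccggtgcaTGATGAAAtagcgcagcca
Iars: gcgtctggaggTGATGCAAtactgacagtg
Tars: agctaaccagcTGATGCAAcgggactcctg
Yars: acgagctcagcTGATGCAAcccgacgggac
The full palindrome TGACGTCA, bound by CREB-family factors, was present in 1 of the 35 windows, that of Ppp1r15a at bases -12 to -5, and in 1.79% of all windows. The surroundings of the palindrome at chr7:45526262-45526291 on the minus strand follow. Ppp1r15a was picked as the only gene of the 36 tested that was called lower at 4 h than at 1 h.
Ppp1r15a: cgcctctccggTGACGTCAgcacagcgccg
A match is a run of letters and not a measured binding site. No window was used for Cars, Hars, Lars, Nars, Rars, Vars, Wars and Slc7a5.

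**Figure D1:**
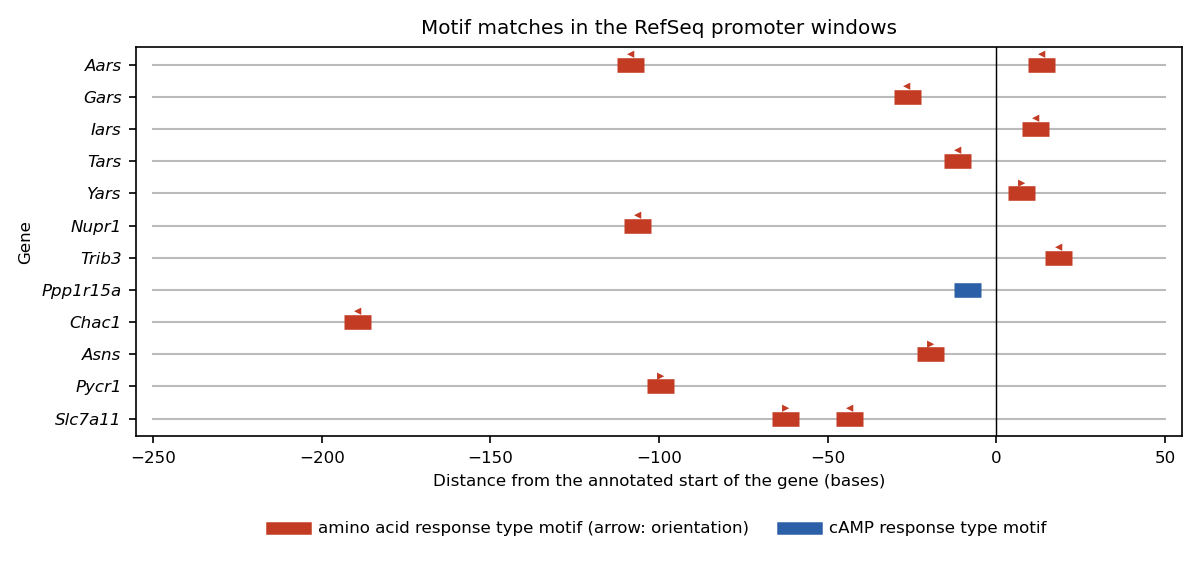
Matches to the 2 motifs in the RefSeq promoter windows of the 12 genes that hold one, by distance in bases from the annotated start (x axis), one line per gene. Aars and Slc7a11 hold 2 matches each, and the arrows give the orientation of the letters relative to the gene.

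Of the 43 genes, 36 had enough counts to be tested and 33 of these 36 varied over the 4 times in edgeR's joint quasi-likelihood test (adjusted p under 0.05), beside 79.8% of all 8629 genes tested. Of the 33, 21 had their highest fitted level at 4 h, a class that held 18% of all genes tested. For another 8 the highest fitted level was at 8 h (16.2% of all genes). For Ppp1r15a and Aldh18a1 it was at 1 h (13.3%), and for Dars and Mthfd1l at 0 h (32.2%). The highest level need not differ from the next by a called amount. Aldh18a1 was not called at 1 h against 0 h or at 4 h against 1 h, nor Sars, Vars, Nupr1 and Slc3a2 at 8 h against 4 h. Lars, Sesn2 and Psph were not called. The heat map of single follicles shows the 4 h block as the most deeply coloured for most synthetases, while Nupr1, Phgdh, Slc7a11 and Slc3a2 are as deep or deeper at 8 h. The 7 genes below the filter on low counts were Atf5, Ddit3, Trib3, Chac1, Ddit4, Pycr1 and Slc7a5, and they are described by their counts alone.

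**Figure D2:**
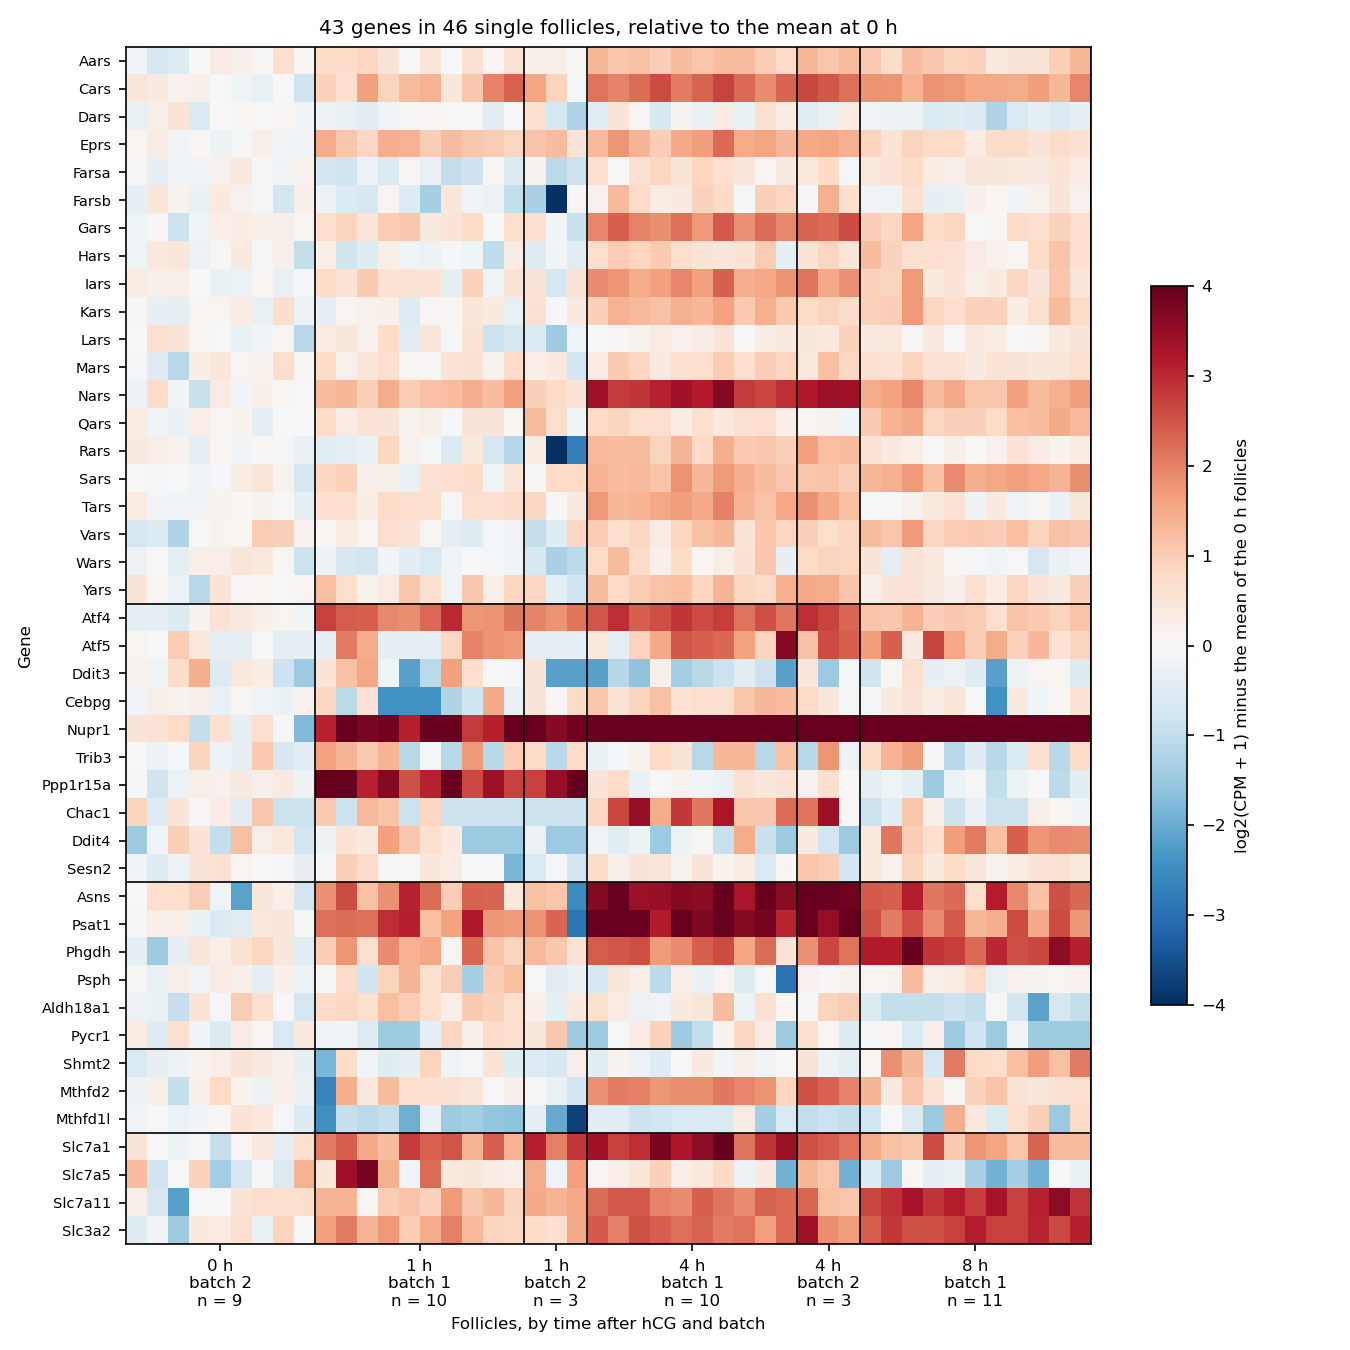
Colour gives log2(CPM + 1) of each of 43 genes (rows) in each of 46 follicles (columns, ordered by time and batch), minus the gene's mean over the 9 follicles at 0 h. Red is above and blue below that mean, colours stop at 4 in either direction, and black lines part the groups of follicles and the gene roles.

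At 1 h against 0 h, 13 of the 36 genes rose and 2 fell, where 12.4% of all genes tested rose and 22.2% fell (34.6% in either direction); the median log2 fold change was 0.42 over the 36 and -0.19 over all genes. From 1 h to 4 h the synthetases joined: 27 of 36 rose and 1 fell, beside 26% and 28.9% of all genes (54.8% in either direction), with medians of 0.90 and -0.06. From 4 h to 8 h 19 fell and 5 rose, beside 21.6% and 19.8% of all genes (41.3% in either direction), with medians of -0.59 and 0.00. Against 0 h, 25 genes were higher and 1 lower at 4 h (21.9% and 32.2% of all genes, 54.2% in either direction), and 19 were higher and 2 lower at 8 h (17.5% and 27.6%, 45.1% in either direction). At 8 h against 1 h, 16 were higher and 6 lower (23.2% and 25.9%, 49.1% in either direction). The 8 h follicles and the 0 h follicles share no batch, so that difference rests on the 1 h and 4 h follicles of both batches.

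The courses fell into a few shapes. A rise from 1 h to 4 h and a fall by 8 h was found for 16 genes, and for 11.8% of all genes tested: 10 synthetases (Cars, Eprs, Farsb, Gars, Iars, Nars, Rars, Tars, Wars and Yars), Atf4, Cebpg, Asns, Psat1, Mthfd2 and Slc7a1. Another 9 rose from 1 h to 4 h and were not called from 4 h to 8 h: Aars, Farsa, Hars, Kars, Mars, Sars, Vars, Nupr1 and Slc3a2. Phgdh and Slc7a11 rose over both intervals, as did 2.97% of all genes. Qars, Shmt2 and Mthfd1l rose over the last interval and were not called over the one before. Dars and Aldh18a1 fell over the last interval, and Ppp1r15a fell over both. With plate in the fit the last step of Cebpg, Slc7a1, Phgdh, Shmt2, Mthfd1l, Dars and Ppp1r15a was not called. Nor was the step from 1 h to 4 h of Eprs, Kars, Sars, Vars, Atf4, Cebpg, Phgdh, Slc7a1 and Slc7a11. Both limma fits also lost the last step of Farsb, Cebpg and Mthfd1l.

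**Figure D3:**
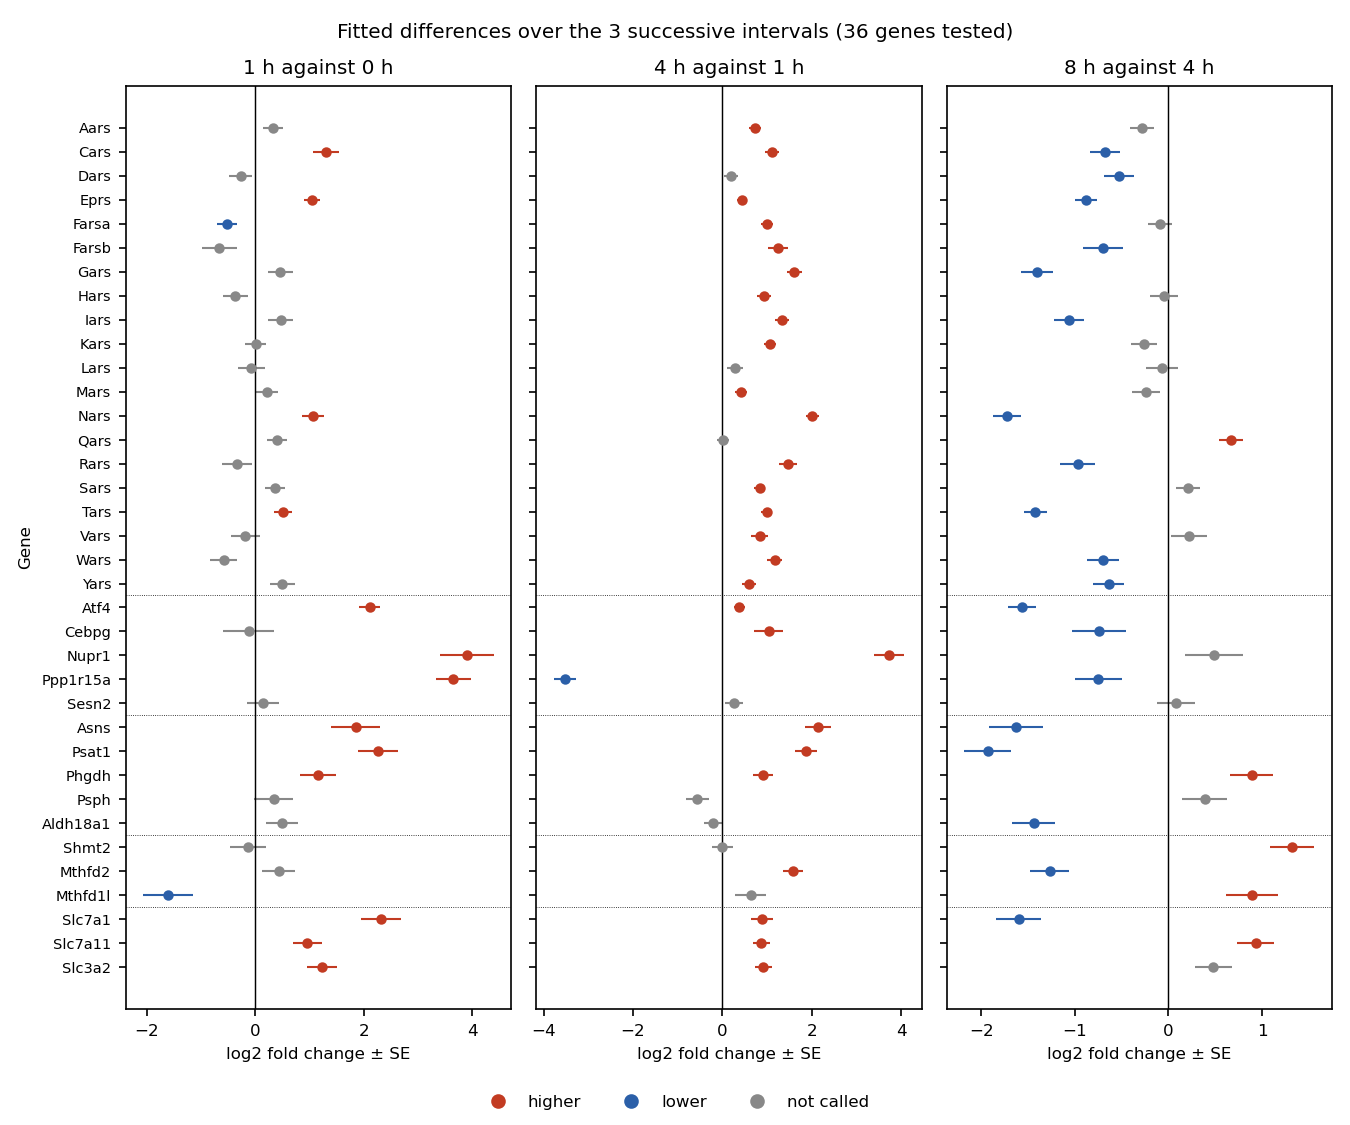
Fitted log2 fold change ± SE (x axis) of the 36 tested genes (y axis, grouped by role) over the 3 successive intervals; red rose, blue fell and grey was not called at an adjusted p of 0.05. Most synthetases are grey from 0 h to 1 h, red from 1 h to 4 h, and blue or grey from 4 h to 8 h, and the x axes differ between the panels.

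Among the synthetases, 4 of 20 rose by 1 h (Cars, Eprs, Nars and Tars) and Farsa fell; 17 rose from 1 h to 4 h; and 16 were above 0 h at 4 h. The 1 h rise of Tars was not called with plate in the fit (0.47, adjusted p = 0.0758) or in batch 2 alone (0.50, adjusted p = 0.116), and that of Nars not in batch 2 alone (0.76, adjusted p = 0.0649). From 1 h to 4 h Eprs, Kars, Sars and Vars were not called with plate in the fit (0.51, 0.47, 0.54 and 0.93, with adjusted p of 0.0972, 0.221, 0.138 and 0.095). Asparaginyl-tRNA synthetase (Nars) moved most. Its level was between 19.5 and 64.2 CPM at 0 h (median 36.6), between 72.5 and 118 CPM in batch 1 at 1 h (median 88.8) with 53.6, 64.7 and 73.3 CPM in batch 2, and between 240 and 486 CPM in batch 1 at 4 h (median 306) with 352, 392 and 416 CPM in batch 2. At 8 h it lay between 78.9 and 144 CPM (median 107). Every follicle at 4 h was above every follicle of the other 3 times, and the 8 h follicles overlapped those at 1 h. The fitted fold was 8.4 at 4 h against 0 h (log2 fold change 3.07, SE 0.19, adjusted p = 6.82e-19) and the fall to 8 h was 1.72 on the log2 scale (SE 0.15, adjusted p = 3.03e-13), which left Nars 2.55-fold above 0 h.

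Glycyl-tRNA synthetase (Gars), whose matching letters are printed above, had a median of 81.3 CPM at 0 h (range 40.7 to 92.4), 124 CPM in batch 1 at 1 h, 297 CPM in batch 1 at 4 h (range 255 to 414) and 132 CPM at 8 h (range 74.8 to 227). The 3 batch 2 follicles measured 40.2, 69.3 and 120 CPM at 1 h and 365, 386 and 465 CPM at 4 h. As with Nars, the 4 h follicles stood above all the others. Gars was 4.22-fold above 0 h at 4 h (log2 fold change 2.08, SE 0.21, adjusted p = 1.79e-11) and fell by 1.40 on the log2 scale by 8 h (SE 0.17, adjusted p = 5.21e-09). Its remaining rise at 8 h, 0.68 (SE 0.26, adjusted p = 0.0271), was not called without the third batch 2 follicle at 4 h (0.55, adjusted p = 0.0837) or with plate in the fit (0.12, adjusted p = 0.792).

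Threonyl-tRNA synthetase (Tars) fell after 4 h and was not called against 0 h at 8 h. Its median was 38.1 CPM at 0 h, 60.4 CPM in batch 1 at 1 h, 111 CPM in batch 1 at 4 h and 39.7 CPM at 8 h, and its range at 8 h (31.5 to 56.8 CPM) overlapped that at 0 h (28.6 to 47.9 CPM) and lay wholly under that at 4 h in batch 1 (85.2 to 154 CPM). The difference of 8 h from 0 h was 0.08 (SE 0.19, adjusted p = 0.748). Isoleucyl- (Iars), cysteinyl- (Cars) and glutamyl-prolyl-tRNA synthetase (Eprs) were 3.48-, 5.31- and 2.76-fold above 0 h at 4 h and fell by 1.06, 0.68 and 0.88 on the log2 scale by 8 h. Arginyl- (Rars), tyrosyl- (Yars) and tryptophanyl-tRNA synthetase (Wars) were 2.22-, 2.14- and 1.51-fold above 0 h at 4 h and fell by 0.97, 0.64 and 0.70. Of these 6, Cars, Eprs and Iars were still called against 0 h at 8 h (3.31-, 1.5- and 1.67-fold), Cars and Eprs with no overlap between the follicles. With plate in the fit Eprs (0.53, adjusted p = 0.0512) and Iars (0.46, adjusted p = 0.308) were not called there. Without the 5 libraries at 0 h marked ds, Iars was not called either.

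Several other synthetases were above 0 h at both 4 h and 8 h. Seryl-tRNA synthetase (Sars) measured between 22.4 and 50.7 CPM at 0 h (median 36.1), between 77 and 128 CPM in batch 1 at 4 h (median 90.7) with 71.4, 78.4 and 80.4 CPM in batch 2, and between 82.1 and 137 CPM at 8 h (median 106). It was 2.29-fold above 0 h at 4 h (log2 fold change 1.19, SE 0.18, adjusted p = 1.59e-07) and 2.64-fold above at 8 h (1.40, SE 0.20, adjusted p = 1.87e-07), with no overlap either time. Valyl-tRNA synthetase (Vars) was 1.82-fold above 0 h at 8 h (log2 fold change 0.87, adjusted p = 0.0144), a call lost without the third batch 2 follicle at 1 h (0.68, adjusted p = 0.0561), and the same held for its rise at 4 h (0.65, and 0.51 without that follicle, adjusted p = 0.082). Without the third batch 2 follicle at 4 h the 4 h value was 0.64 (adjusted p = 0.052). Alanyl- (Aars) and lysyl-tRNA synthetase (Kars) were 2.09- and 2.1-fold above 0 h at 4 h, and 1.73- and 1.75-fold above at 8 h. With plate in the fit the 8 h differences of Aars (0.51, adjusted p = 0.123) and Vars (0.79, adjusted p = 0.124) were not called.

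Glutaminyl-tRNA synthetase (Qars) alone of the 20 rose over the last interval. Its medians were 34.7 CPM at 0 h, 46.7 and 55.2 CPM in batch 1 at 1 h and 4 h, and 81.1 CPM at 8 h, and every follicle at 8 h (60.5 to 102 CPM) was above every follicle at 0 h (26 to 43.2 CPM). The rise from 4 h to 8 h was 0.67 (SE 0.13, adjusted p = 6.41e-05), and at 4 h against 0 h it was 0.41 (SE 0.19, adjusted p = 0.0629). Aspartyl-tRNA synthetase (Dars) went the other way, with a fall of 0.53 from 4 h to 8 h (SE 0.16, adjusted p = 0.00544) that was not called with plate in the fit (-0.37, adjusted p = 0.533) or by limma on log2(TPM + 0.1) (-0.46, adjusted p = 0.0507). Its difference of 8 h from 0 h, -0.61 (adjusted p = 0.0372), was kept as a call in only 3 of 18 alternative fits. DESeq2, both limma fits and the fit with plate were among those that lost it. Leaving out any of 4 batch 2 follicles lost it as well. These were replicates 12 and 13 at 1 h (-0.41 and -0.50) and replicates 11 and 12 at 4 h (-0.38 and -0.56). Leucyl-tRNA synthetase (Lars) had medians between 17.3 and 36.3 CPM in all 6 groups of time and batch and was called in no comparison.

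The smaller rises at 4 h depended more on single follicles. Farsa and Farsb encode the 2 kinds of subunit of phenylalanyl-tRNA synthetase, and both rose from 1 h to 4 h (0.99, SE 0.13, and 1.24, SE 0.22); Farsb then fell by 0.70, while Farsa did not change by a called amount (-0.09, SE 0.13). Against 0 h at 4 h, Farsa (0.47), Hars (0.56), Mars (0.64) and Wars (0.59) were called, but without replicate 12 at 4 h none was: 0.36, 0.48, 0.46 and 0.51, with adjusted p of 0.116, 0.0808, 0.0597 and 0.0717. Wars was also not called without replicate 13 at 4 h (0.52, adjusted p = 0.0669). The fall of Farsa at 1 h (-0.52, adjusted p = 0.025) was kept as a call in 7 of 19 alternative fits. The fit with plate, both limma fits and batch 2 alone were among those that lost it. It was also lost without replicate 12 or 13 at 1 h (-0.37 and -0.46) and without replicate 11 or 13 at 4 h (-0.44 both times). At 8 h against 1 h, Cars (0.42) and Rars (0.51) were called, and not without replicate 13 at 1 h (0.38 and 0.45) or with plate in the fit (0.36 and 0.39). Hars overlaps Hars2 and Mars overlaps Ddit3 on the opposite strand in their exons, and the library kit does not mark strand. Such overlaps were found for 12 of the 43 genes, the others being Aars, Cars, Farsb, Yars, Atf5, Cebpg, Ppp1r15a, Psph and Shmt2.

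The multi-synthetase complex of animal cells holds 8 of the synthetases (Eprs, Iars, Lars, Mars, Qars, Rars, Kars and Dars). Of these 5 rose from 1 h to 4 h, and of the 12 others all 12 did, with median log2 fold changes of 0.42 and 0.99; the division was chosen after the values were seen and is given without a test. The complex's scaffold and partner genes were measured as well: Aimp2 and Eef1e1, which encode non-enzyme subunits, rose by 2.58 and 1.87 from 1 h to 4 h and fell by 0.86 and 1.47 by 8 h, as did Xpot, the exportin of tRNA from the nucleus (0.78, then a fall of 0.93). Aimp1, another non-enzyme subunit, was lower than at 0 h at 4 h (-1.71, SE 0.33) and at 8 h (-1.51, SE 0.40).

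Summed over the 20 genes, synthetase transcripts made up between 708 and 907 CPM per follicle at 0 h (median 835), between 971 and 1273 CPM in batch 1 at 1 h (median 1096), between 1833 and 2730 CPM in batch 1 at 4 h (median 2036), and between 1128 and 1715 CPM at 8 h (median 1308). The 3 batch 2 follicles summed to 756, 871 and 1156 CPM at 1 h and 2134, 2169 and 2213 CPM at 4 h. No follicle at 4 h fell within the range of any other time. The sum carries no test. Per unit of transcript length, in the deposited TPM values, Eprs (median 39.5), Kars (34.1), Dars (33) and Gars (30.5) led at 0 h and Cars (4.77) and Iars (5.23) were lowest. In batch 1 at 4 h Gars (181) and Nars (178) led, followed by Eprs (162) and Kars (119), and Lars (11) was lowest. Gars and Nars did not differ there beyond their spread in the follicles.

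**Figure D4:**
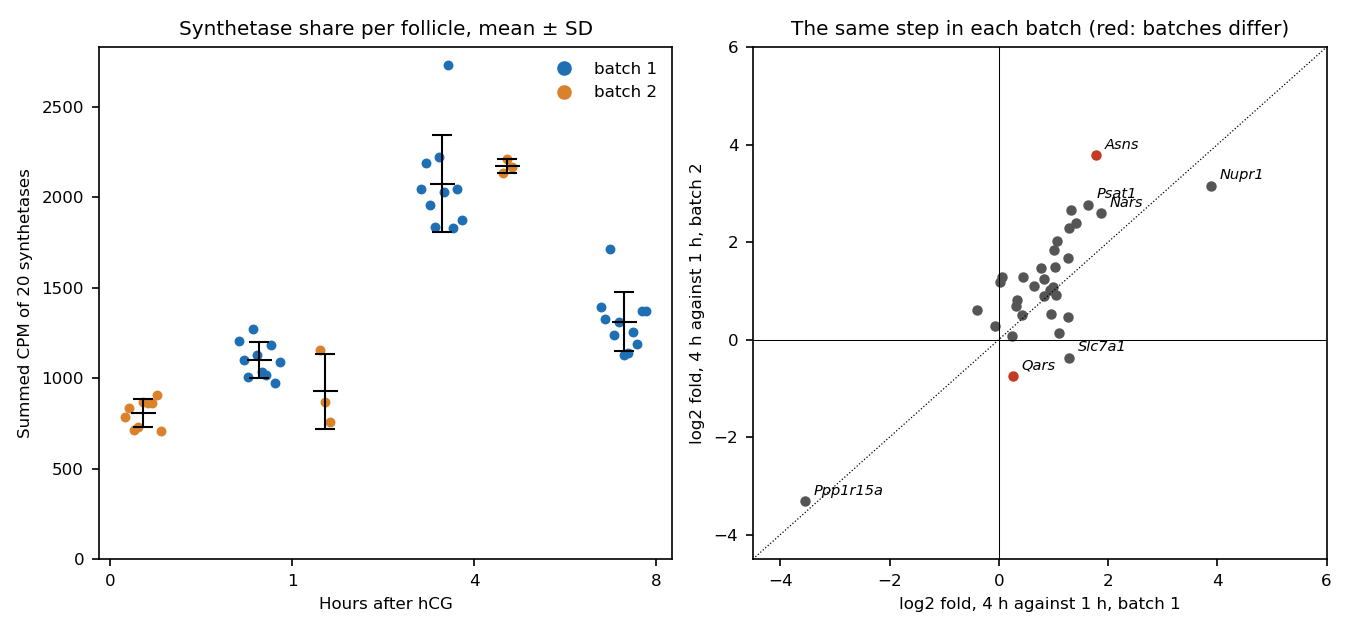
Left, summed CPM of the 20 synthetases in each follicle (points) with mean ± SD by time (categories, not to scale) and batch; the 4 h follicles lie between 1833 and 2730 and the 0 h follicles between 708 and 907. Right, the log2 fold change of 33 genes from 1 h to 4 h in batch 1 (x axis, 10 against 10 follicles) and batch 2 (y axis, 3 against 3), where the dotted line marks equal values and red marks Asns and Qars.

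Of 5 tested regulators, Atf4, Nupr1 and Ppp1r15a rose by 1 h. Atf4 encodes the transcription factor of the response, and its gene lies at chr15:80255184-80257541 (GRCm38, GENCODE M21). It measured between 49.3 and 109 CPM at 0 h (median 78.5), between 248 and 576 CPM in batch 1 at 1 h (median 332) with 252, 291 and 319 CPM in batch 2, between 316 and 562 CPM in batch 1 at 4 h (median 437) with 356, 475 and 565 CPM in batch 2, and between 117 and 193 CPM at 8 h (median 153). The 4 times overlapped only between 1 h and 4 h. Atf4 was 4.31-fold above 0 h at 1 h (log2 fold change 2.11, SE 0.19, adjusted p = 8.82e-13), 5.63-fold above at 4 h (2.49, SE 0.18, adjusted p = 5.99e-16), and fell by 1.56 from 4 h to 8 h (SE 0.15, adjusted p = 3.36e-12). The further rise from 1 h to 4 h was small, 0.38 (SE 0.13, adjusted p = 0.0119). It was not called with plate in the fit (0.70, adjusted p = 0.055) or in batch 2 alone (0.73, adjusted p = 0.166). Both of these values rest on the same batch 2 follicles. These are transcript levels, while the control of ATF4 that defines the pathway acts on translation, which was not measured.

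Nupr1, a small stress-induced chromatin regulator, had the largest fitted change of the 36 tested genes. Its level was between 0 and 4.82 CPM at 0 h (median 3.93), between 22.7 and 81.8 CPM in batch 1 at 1 h (median 47.2) with 41.6, 48.2 and 78.6 CPM in batch 2, between 151 and 1790 CPM in batch 1 at 4 h (median 726) with 405, 433 and 679 CPM in batch 2, and between 324 and 1690 CPM at 8 h (median 1150). The first 3 times did not overlap with each other, and those at 4 h and 8 h did. The fitted log2 fold changes against 0 h were 3.90 at 1 h (SE 0.49, adjusted p = 2.08e-08), 7.61 at 4 h (SE 0.52, adjusted p = 4.17e-17) and 8.11 at 8 h (SE 0.57, adjusted p = 1.89e-16). From 4 h to 8 h the change was 0.49 (SE 0.31, adjusted p = 0.212). By TPM it was the highest of the 43 genes at 8 h, with a median of 2090, ahead of Slc3a2 with 1380.

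Ppp1r15a, which encodes the inducible GADD34 subunit that returns eIF2 to its unphosphorylated form, was a pulse at 1 h. It measured between 31.4 and 71 CPM at 0 h (median 62), between 330 and 2170 CPM in batch 1 at 1 h (median 546) with 372, 633 and 962 CPM in batch 2, between 45.3 and 94.1 CPM in batch 1 at 4 h (median 69.4) with 54, 61.8 and 86.8 CPM in batch 2, and between 20.1 and 54.8 CPM at 8 h (median 42.8). All 13 follicles at 1 h were above all 33 at the other times. The rise was 12.6-fold (log2 fold change 3.65, SE 0.32, adjusted p = 6.57e-13), the fall to 4 h was 3.52 on the log2 scale (SE 0.25, adjusted p = 9.32e-17), and a further fall of 0.75 followed by 8 h (adjusted p = 0.0137), which was not called with plate in the fit (-1.03, adjusted p = 0.189). Its exons overlap Tulp2 on the other strand. The constitutive counterpart Ppp1r15b rose by 1.48 at 1 h (SE 0.23) and was still 1.69 above 0 h at 4 h (SE 0.22).

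Cebpg, a C/EBP partner of ATF4, was low (median 4.62 CPM at 0 h, 0 in 3 of 10 batch 1 follicles at 1 h) and rose from 1 h to 4 h by 1.03 (SE 0.33, adjusted p = 0.00806). Its fall by 8 h, 0.74 (adjusted p = 0.0381), was lost without replicate 11 at 4 h (-0.71, adjusted p = 0.0504). Both steps turned sign, with no call, in the fit with plate (-0.02 and 0.55). Sesn2, a leucine sensor that restrains mTORC1, had medians between 9.33 and 30 CPM in the 6 groups and was called in no comparison.

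The 5 regulators below the filter had at most 205 counts summed over a time. These sums are not scaled for depth, and the median total was lowest at 1 h. The ratios at equal depth pool all follicles of a time, with no term for batch. In those of 8 h to 0 h time and batch cannot be told apart, as these times share no batch. Chac1, a glutathione-degrading enzyme, had 205 counts over the 13 follicles of 4 h. The 9 follicles of 0 h held 24 counts, the 13 of 1 h held 10 and the 11 of 8 h held 14. At equal depth the ratio of 4 h to 0 h was 8.5 (95% exact interval 5.55 to 13.6) and that of 8 h to 4 h was 0.0755 (0.0405 to 0.13), intervals that cover counting error only. All 13 follicles at 4 h held at least 1 count, with levels between 2.24 and 19.6 CPM in batch 1 and of 0.831, 7.01 and 19.2 CPM in batch 2. Atf5, a paralog of Atf4, had 7 counts at 0 h and 76 at 4 h, a ratio of 10.8 (4.99 to 27.8). The exons of Atf5 overlap Nup62 and Il4i1 on the other strand. Ddit4, an inhibitor of mTORC1, had 49 counts at 0 h, 31 at 4 h and 158 at 8 h, a ratio of 3.54 for 8 h to 0 h (2.56 to 4.99). Ddit3, the pro-apoptotic factor CHOP that marks a stronger form of the response, had 86, 46, 36 and 59 counts at the 4 times. At equal depth its ratio to 0 h was 1.49 at 1 h (1.02 to 2.15) and 0.416 at 4 h (0.274 to 0.621). The exons of Ddit3 overlap Mars. Trib3, a pseudokinase that restrains ATF4, had 29, 22, 41 and 41 counts. Its ratio to 0 h at equal depth was 2.11 at 1 h (1.16 to 3.81) and 1.41 at 4 h (0.853 to 2.35).

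**Figure D5:**
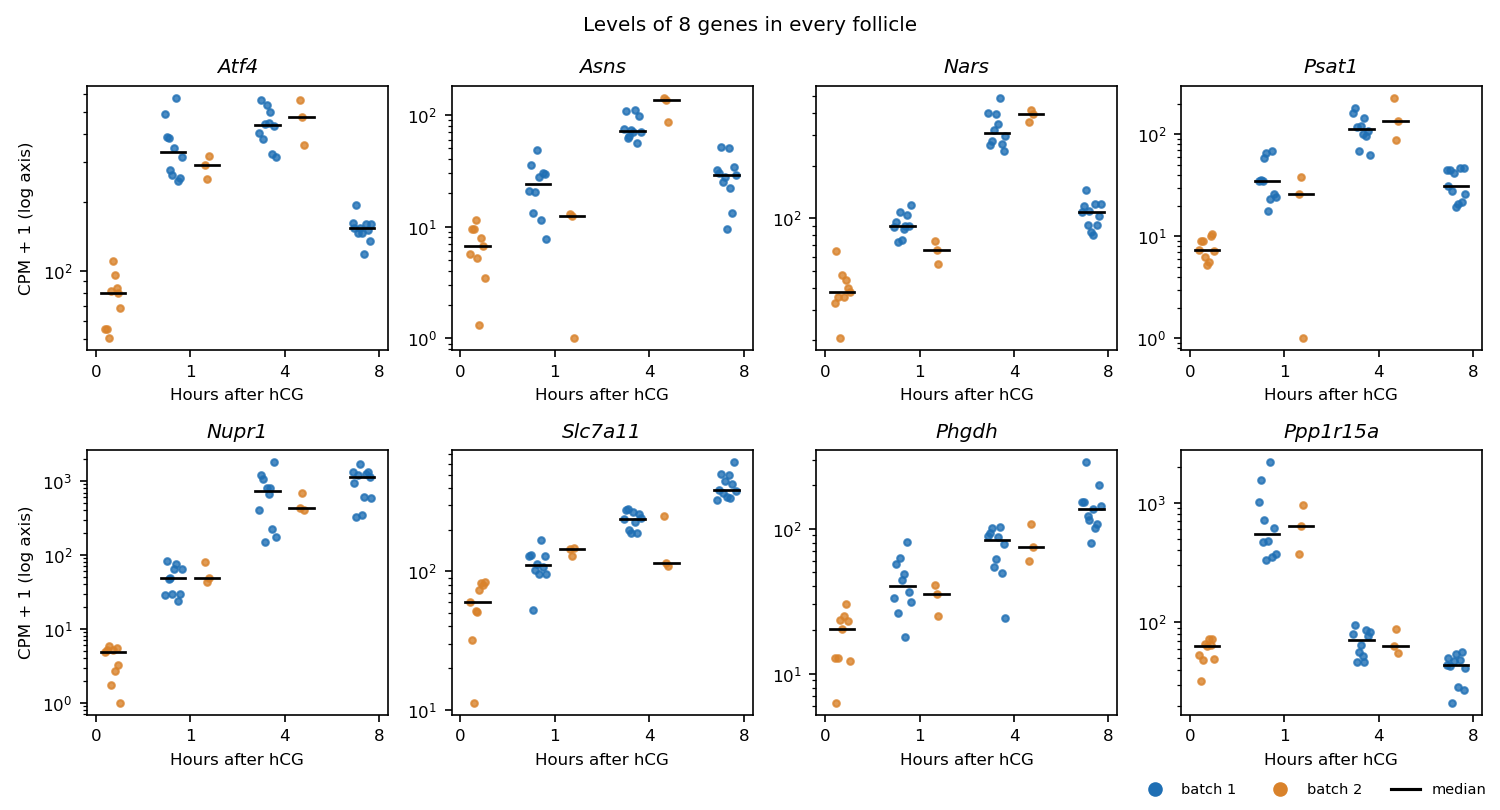
CPM + 1 of 8 genes in each of 46 follicles on log axes, by hours after hCG (categories, not to scale) and batch, with black lines at the medians. Atf4, Asns, Nars and Psat1 are highest at 4 h and lower at 8 h, Nupr1, Slc7a11 and Phgdh have their highest medians at 8 h, and Ppp1r15a is high at 1 h alone.

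The enzymes of amino acid synthesis split between these shapes. Asparagine synthetase (Asns, chr6:7675169-7693254) measured between 0.33 and 10.5 CPM at 0 h (median 5.71), between 6.72 and 47.8 CPM in batch 1 at 1 h (median 23.1) with 0, 11.5 and 12 CPM in batch 2, between 55.3 and 109 CPM in batch 1 at 4 h (median 70.7) with 85.6, 133 and 140 CPM in batch 2, and between 8.55 and 50.4 CPM at 8 h (median 27.8). The 4 h follicles stood above all others, and at 1 h the groups overlapped with 0 h. Asns was 15.9-fold above 0 h at 4 h (log2 fold change 3.99, SE 0.38, adjusted p = 2.61e-12) and fell by 1.63 from 4 h to 8 h (SE 0.29, adjusted p = 8.06e-06). Its rise by 1 h, 1.85 (SE 0.45, adjusted p = 0.00118), was 0.61 with plate in the fit (adjusted p = 0.509), and its difference at 8 h, 2.36 (SE 0.46, adjusted p = 4.08e-05), was 0.89 there (adjusted p = 0.34).

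The 3 enzymes that make serine from 3-phosphoglycerate did not move together. Psat1, the second enzyme, had the course of Asns: a median of 6.28 CPM at 0 h (4.19 to 9.52), 33.8 CPM in batch 1 at 1 h (16.6 to 68.1), 112 CPM in batch 1 at 4 h (61.6 to 182) and 30.1 CPM at 8 h (18.2 to 45.4). Batch 2 held 0, 25.3 and 37 CPM at 1 h and 86.2, 135 and 226 CPM at 4 h. It was 17.5-fold above 0 h at 4 h (log2 fold change 4.13, SE 0.33, adjusted p = 1.18e-14) and fell by 1.93 by 8 h (SE 0.25, adjusted p = 1.46e-08). Phgdh, the first and committed enzyme, instead was highest at 8 h, going from a median of 19.3 CPM at 0 h (5.28 to 29.2) to 82.4 CPM in batch 1 at 4 h (23.1 to 102) and 135 CPM at 8 h (79.1 to 286). It was 7.71-fold above 0 h at 8 h (log2 fold change 2.95, SE 0.36, adjusted p = 3.23e-09), with no overlap, and its step from 4 h to 8 h was 0.89 (SE 0.23, adjusted p = 0.00127), or 0.50 with plate in the fit (adjusted p = 0.58). Its steps to 1 h and from 1 h to 4 h were not called there either (0.94, adjusted p = 0.0803, and 1.24, adjusted p = 0.055). Psph, the last enzyme, had medians between 5.36 and 12.8 CPM in the 6 groups and was called in no comparison.

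Of the 2 proline enzymes, Aldh18a1, which begins the pathway from glutamate, fell late. Its level was between 9.1 and 38 CPM at 0 h. Its median was 32.8 CPM in batch 1 at 1 h (22.2 to 43.6), 23.8 CPM in batch 1 at 4 h (15.4 to 44) and 9.08 CPM at 8 h (3.4 to 18.4). All 11 of the 8 h follicles were below all 10 of batch 1 at 1 h, but those of batch 2 (21.3, 13.9 and 24.1 CPM) overlapped them. The difference of 8 h from 0 h was -1.16 (SE 0.34, adjusted p = 0.00477). That call was kept in 13 of 17 alternative fits, and lost in both limma fits and without the 0 h libraries marked ds. The fall from 4 h to 8 h was 1.44 (SE 0.23, adjusted p = 1.17e-06). Pycr1, the last enzyme of the pathway, was below the filter with 38, 14, 40 and 19 counts at the 4 times. At equal depth its ratio to 0 h was 1.03 at 1 h (0.513 to 1.94) and 0.55 at 8 h (0.299 to 0.977). These ratios have no batch term, and the 8 h and 0 h follicles share no batch.

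The mitochondrial folate enzymes each took a course of their own. Mthfd2, the dehydrogenase and cyclohydrolase of the pathway, followed Asns, with medians of 15.8 CPM at 0 h, 21.4 CPM in batch 1 at 1 h, 55 CPM in batch 1 at 4 h (26.9 to 65) and 22.3 CPM at 8 h; in batch 2 at 4 h it measured 59, 77.3 and 88.6 CPM. It was 4.02-fold above 0 h at 4 h (log2 fold change 2.01, SE 0.27, adjusted p = 2.23e-08) and fell by 1.27 by 8 h (SE 0.21, adjusted p = 3.45e-06). Shmt2, which takes the one-carbon unit from serine, was not called between the first 3 times (medians of 67.5 CPM at 0 h and of 56.4 and 58.7 CPM in batch 1 at 1 h and 4 h) and had a median of 142 CPM at 8 h with a wide range, 37.2 to 262 CPM. It was 2.29-fold above 0 h at 8 h (log2 fold change 1.19, SE 0.36, adjusted p = 0.00652), a difference of 0.97 with plate in the fit (adjusted p = 0.099), and the groups overlapped.

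Mthfd1l, the formate-releasing synthetase of the pathway, fell by 1.60 by 1 h (SE 0.46, adjusted p = 0.00637), from a median of 11.8 CPM (8.07 to 18.8) to 4.02 CPM in batch 1 (1.4 to 9.97) and 0, 2.31 and 9.33 CPM in batch 2, and the groups overlapped. The fall was not called with plate in the fit (-1.39, adjusted p = 0.091), in batch 2 alone (-1.37, adjusted p = 0.0731) or without the 5 libraries at 0 h marked ds (-1.40, adjusted p = 0.053). At 4 h its difference from 0 h, -0.98 (SE 0.43, adjusted p = 0.0495), was lost without any one of 5 batch 2 follicles: replicates 12 and 13 at 1 h (-0.83 and -0.89) and replicates 11, 12 and 13 at 4 h (-0.81, -0.97 and -0.94). By 8 h its median was 12 CPM, and the rise from 1 h was 1.52 (SE 0.34, adjusted p = 0.000217).

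All 3 tested transporter subunits were called above 0 h at each later time. The 1 h rise of Slc3a2 (1.23, adjusted p = 0.000332) was not called in batch 2 alone, and its follicles overlapped those at 0 h. Slc7a11, the xCT subunit with 2 motif copies at its start, measured between 10.2 and 82.6 CPM at 0 h (median 59.3), between 51.6 and 166 CPM in batch 1 at 1 h (median 110) with 129, 145 and 147 CPM in batch 2, between 188 and 279 CPM in batch 1 at 4 h (median 239) with 109, 114 and 249 CPM in batch 2, and between 324 and 612 CPM at 8 h (median 386). All 8 h follicles were above all others. It was 6.79-fold above 0 h at 8 h (log2 fold change 2.76, SE 0.31, adjusted p = 3.76e-10), and its steps were 0.87 from 1 h to 4 h (SE 0.19, adjusted p = 0.000154) and 0.93 from 4 h to 8 h (SE 0.20, adjusted p = 0.000156). With plate in the fit the first of these was 0.16 (adjusted p = 0.816) and the second 1.76 (adjusted p = 0.00431).

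Slc3a2, the heavy chain that pairs with xCT and with LAT1, went from a median of 224 CPM at 0 h (80.8 to 416) to 1040 CPM in batch 1 at 4 h (697 to 1290) and 1490 CPM at 8 h (1180 to 1960), 6.16-fold above 0 h with no overlap (log2 fold change 2.62, SE 0.30, adjusted p = 6.89e-10). Slc7a5, the LAT1 light chain, was below the filter: 68, 129, 94 and 24 counts at the 4 times, with a ratio of 5.28 for 1 h to 0 h (3.91 to 7.19) and of 0.388 for 8 h to 0 h (0.233 to 0.626). In batch 1 at 1 h, replicates 3, 2 and 6 held 51.6, 39.4 and 16.6 CPM of it, against a median of 4.16 CPM there. They gave 59, 26 and 15 of the 129 counts. The 0 h follicles held between 0.419 and 8.69 CPM. The intervals cover counting error only and the ratios have no batch term, while the 8 h and 0 h follicles share no batch. At 8 h xCT was thus at its highest median and LAT1 at its lowest summed count. Slc7a1, the carrier of arginine and lysine, was 4.98-fold above 0 h at 1 h (log2 fold change 2.32, SE 0.37, adjusted p = 2.87e-06) and 9.19-fold above at 4 h (3.20, SE 0.36, adjusted p = 1.9e-10). It fell by 1.60 by 8 h (SE 0.24, adjusted p = 3.72e-07), to a median of 9.27 CPM from 40.8 CPM in batch 1, a step of -0.10 with plate in the fit (adjusted p = 0.93). Its rise from 1 h to 4 h, 0.88 (SE 0.24, adjusted p = 0.00164), was -0.37 there (adjusted p = 0.607). The difference of 8 h from 1 h, -0.71 (adjusted p = 0.0253), was lost without replicate 11 at 1 h (-0.55) or replicate 11 at 4 h (-0.61).

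The step from 1 h to 4 h is the one interval that both batches hold, in libraries they do not share. Of 33 genes that could be fitted on these 26 libraries, 28 were higher at 4 h in both batches and 1 (Ppp1r15a) lower in both. The exceptions were Qars, Slc7a1, Aldh18a1 and Shmt2. The test of the difference between batches called 2 of the 33, Qars and Asns, a share near the 5.09% it called of all 5820 genes tested. Qars changed by 0.26 in batch 1 and by -0.75 in batch 2, a difference of -1.01 (SE 0.28, adjusted p = 0.0338), and Asns by 1.78 and 3.78, a difference of 2.01 (SE 0.59, adjusted p = 0.0432). Of the 33 genes, none was called without replicate 12 at 4 h, 1 without replicate 12 at 1 h or without replicate 11 or 13 at 4 h, and 3 without replicate 11 at 1 h. DESeq2 called 7. Slc7a1 changed by 1.29 in batch 1 and by -0.37 in batch 2, a difference of -1.66 (SE 0.51, adjusted p = 0.0535). With batch 2 alone, 12 of 38 genes tested rose from 1 h to 4 h, against 27 of 36 in the fit of both batches. Calls over all genes were fewer there too. They were 1242 of 10330 genes, 51.1% of them higher, against 4733 of 8629, 47.3% of them higher, in the fit of both batches.

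Genes with and without the ATF4-type letters were set side by side. All 8 tested genes with TGATGNAA in their window were called higher at 4 h than at 0 h, with log2 fold changes from 1.07 to 7.61 and a median of 1.81. Of 21 tested genes whose window lacked it, 11 were higher and 1 lower, with a median of 0.64, and Psat1 (4.13) and Slc7a1 (3.20) were among the higher ones. Of all genes tested 21.9% were higher and 32.2% lower. From 4 h to 8 h, 5 of the 8 fell and 1 rose, and of the 21 others 10 fell and 4 rose. Of all genes 21.6% fell and 19.8% rose over that interval. Among genes with the letters, Asns, Gars and Tars fell after 4 h, Nupr1 was not called, and Slc7a11 rose. These are descriptions of a list with known biology and carry no test.

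Further lists from the pathway were mixed. Of 12 tested mitochondrial synthetases, 1 rose and 3 fell from 1 h to 4 h, with a median of -0.27. Among the 20 cytosolic ones 17 rose, and of all genes 26% rose and 28.9% fell. Against 0 h at 4 h, 4 of the mitochondrial ones were higher, among them Cars2 (1.76, SE 0.28) and Yars2 (2.01, SE 0.44). Another 5 were lower, among them Rars2 (-3.90, SE 0.53), beside 21.9% higher and 32.2% lower of all genes. The riser from 1 h to 4 h was Mars2 (1.23, SE 0.38), whose value was -0.19 in batch 2 alone. Among 15 genes of eIF2, its kinases and its exchange factor, 6 rose and 3 fell from 1 h to 4 h, near the 54.8% of all genes called either way. Impact, an inhibitor of the kinase GCN2, fell by 3.43 over that interval (SE 0.24, adjusted p = 1.5e-16). Eif2s1 and Eif2s2, subunits of eIF2, were higher at 4 h than at 0 h (0.62 and 1.76) and fell by 1.25 and 1.15 from 4 h to 8 h, as the synthetases with a 4 h maximum did.

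A further list of 20 ATF4 targets, 13 of them tested, was mixed at 4 h against 0 h, with 6 higher and 3 lower, beside 21.9% and 32.2% of all genes. Eif4ebp1, an inhibitor of cap-dependent translation, rose by 1.72 from 1 h to 4 h (SE 0.14, adjusted p = 1.47e-14), and the neutral amino acid carrier Slc1a5 rose by 1.45 (SE 0.35). Atf3 and Slc38a2 were early, like Ppp1r15a: Atf3 rose by 5.41 at 1 h (SE 0.57) and fell by 5.91 from 1 h to 4 h, and Slc38a2, a carrier of small neutral amino acids, rose by 1.83 and fell by 1.26. Herpud1, a gene of endoplasmic reticulum protein degradation, rose by 1.72 at 1 h (SE 0.28) and was lower than at 0 h at 4 h (-2.36, SE 0.29) and at 8 h (-3.77, SE 0.36). The lipoprotein receptor gene Vldlr rose late, by 1.95 from 4 h to 8 h (SE 0.25).

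Of 6 tested genes of the remaining folate pathway, Mthfd1, the cytosolic counterpart of the mitochondrial enzymes, was lower than at 0 h at 4 h (-1.40, SE 0.44) and 8 h (-1.93, SE 0.54), and Mthfd2l, a close relative of Mthfd2, was higher (1.54, SE 0.40, and 1.59, SE 0.46). At 4 h 2 of the 6 were higher and 2 lower than at 0 h, beside 21.9% and 32.2% of all genes. Of 10 tested genes of amino acid sensing by mTORC1, 2 rose and 4 fell from 1 h to 4 h, again near the 54.8% of all genes. Rragd, a Rag GTPase, rose by 3.29 (SE 0.28, adjusted p = 9.04e-14), or by 1.73 with plate in the fit, and Sesn3 and Sesn1, relatives of Sesn2, fell by 2.02 (SE 0.20) and 1.35 (SE 0.28).

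Follicles of one time differed, by a coefficient of variation with a median over the 36 genes of 27.4% at 0 h, 30.8% in batch 1 at 1 h, 21.6% in batch 1 at 4 h and 22.3% at 8 h. Cebpg at 1 h in batch 1 was the most variable (124%) and Mars at 8 h the least variable of these 4 groups (9.7%). Single follicles led for many genes at once: replicate 7 at 4 h was the highest of the 10 in batch 1 for 15 of the 36 genes, and replicate 3 at 8 h the highest of 11 for 16. Replicate 10 at 4 h, the shallowest library of the series with 241442 counts, was the lowest of the 10 for 10 genes. The part of depth in this was not tested.

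All 62 differences from 0 h called here had the same sign in the authors' deposited table. That table rests on the same series and only called differences were compared, so the match in sign is no independent check. The authors' deposited table gives a signed fold of 8.57 for Nars, 14.96 for Asns, 17.67 for Psat1 and 216.33 for Nupr1 at 4 h, and of 7.35 for Slc7a11 and 8.20 for Phgdh at 8 h. For Chac1 the authors' deposited table gives 7.90 at 4 h (p = 4.8e-07) and for Ddit4 3.48 at 8 h (p = 8.5e-05).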

How the data were processed

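Single follicles were profiled by Smart-Seq2 with Nextera XT, which do not mark strand. Per the submitters' processing notes HISAT2, Partek and DESeq2 were used with GRCm38, and their versions and settings are not given in the sources used here. The deposited counts are whole-number gene counts that the authors adjusted with ComBat-seq, per the file's own name, and the deposited TPM were computed from them. The authors' deposited table gives a p-value and a fold, here treated as a signed score, for each time against 0 h, and a normalized total signal that was not used. The adjustment may remove or add differences tied to batch, which the times do not share evenly.

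The tests used edgeR 4.0.16 in R 4.3.3 (TMM, filterByExpr, quasi-likelihood F test, terms for time and batch) on all 46 libraries and 8629 genes, with Benjamini-Hochberg adjustment and a call at an adjusted p under 0.05. The biological coefficient of variation was 34%. Scripts were tested on simulated data. Alternatives used DESeq2 1.42.0, limma 3.58.1 on log2 TPM, other scaling and filters, thinned counts, a plate term and left-out libraries. Ratios of low genes carry 95% exact counting intervals and have no batch term. All 43 genes are reported, with up to 3 called rises and 3 called falls per further list and comparison. The genes and lists were chosen with earlier results of these data known. No libraries were identical, and 10 columns that match no described sample were not used. Some items are not reported here.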

Additional observations from a re-analysis of the deposited data

Results flagged for a closer look

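Groups of 9 or 10 follicles were searched for one set apart by its gap to the nearest, relative to the range, on log2(CPM + 1). The 8 h follicles and the groups of 3 in batch 2 were not searched. That scale widens gaps between low values, so a flagged gap can look small in CPM. Chance flags about 1 in 20 groups of normally spread values, and whether these values are so spread was not tested. Single follicles stood apart in 14 of 108 groups, each as the lowest of its group. At 0 h these were Gars at 40.7 CPM and Slc7a11 at 10.2 CPM in replicate 3, Hars at 14.9 CPM in replicate 9, Yars at 10.5 CPM in replicate 4 and Ppp1r15a at 31.4 CPM in replicate 2. In batch 1 at 1 h they were Shmt2 at 16.8 CPM and Mthfd2 at 1.4 CPM in replicate 1, Slc7a11 at 51.6 CPM in replicate 3 and Sesn2 at 3.36 CPM in replicate 10. In batch 1 at 4 h they were Sesn2 at 9.09 CPM in replicate 9 and, in replicate 10, Hars and Phgdh, both at 23.1 CPM, Mthfd2 at 26.9 CPM and Psph at 0 CPM. Replicate 10 at 4 h had the smallest library, with 241442 counts.

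The change from 1 h to 4 h differed between the batches for Qars, by -1.01 in batch 2 relative to batch 1, and for Asns, by 2.01, on the log2 scale. These are 2 of 33 genes, near the 5.09% called of all genes, and 0 were called with the replicate block, with no filter on low counts or without replicate 12 at 4 h.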

How the results depend on the processing

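The 13, 25, 19, 27, 16 and 5 genes higher at 1 h, 4 h and 8 h against 0 h, at 4 h and 8 h against 1 h, and at 8 h against 4 h became, with every library thinned to the smallest total, 4, 10, 6, 9, 5 and 1, with 1 lower at 8 h against 1 h and 4 lower at 8 h against 4 h. Only 30 of the 36 genes were tested at that depth. At 1 h against 0 h, 20 were higher with no batch term and 21 by limma on log2(TPM + 1). At 8 h against 1 h, 25 were higher by limma with either pseudocount, where the share of higher genes among all calls moved from 47.3% to 70.0% and 72.0%. With a plate term 12 were higher at 8 h against 0 h and 2 at 8 h against 4 h. In batch 2 alone, an alternative chosen after seeing the data, 12 were higher at 4 h against 1 h. Of all genes 1242 of 10330 were called there, against 4733 of 8629 in the main fit.

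The few lower genes moved most in proportion. Mthfd1l, the 1 gene lower at 4 h than at 0 h, was lost (0 lower) under DESeq2, RLE factors, no filter, the plate term, both limma fits and batch 2 alone, and without 4 libraries that stood apart, the libraries marked ds, the genes at 0 in batch 2 after hCG, or any 1 of the 6 batch 2 libraries at 1 h and 4 h but replicate 11 at 1 h. Under thinning it was not tested, and 0 genes were lower. Against 0 h, 8 h had 1 lower gene under DESeq2, RLE factors, no filter, the plate term and without the 4 libraries or the genes at 0, and 0 under limma, thinning and without the ds libraries. At 1 h against 0 h it was 1 in batch 2 alone, by limma with a pseudocount of 1 and without the genes at 0, and 0 under thinning and without the ds libraries. At 4 h against 1 h it was 3 with no filter and 2 in batch 1 alone, with plate, by limma with a pseudocount of 1, and without the 4 libraries, the genes at 0 or the ds libraries. Leaving out 1 of those 6 libraries gave 1 to 3 lower genes at 1 h against 0 h, 1 to 2 at 8 h against 0 h and at 4 h against 1 h, and 0 to 3 genes that differed between the batches. DESeq2 found 7 of those and the fit with no filter 0.

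Signs turned in the fit with plate for Cebpg (-0.02 from 1 h to 4 h, 0.55 from 4 h to 8 h), Mars2 (-0.23 and 0.46), Slc7a1 (-0.37 from 1 h to 4 h), Rraga (0.14 from 4 h to 8 h) and Rragd (0.81). They turned in batch 2 alone for Slc7a1 (-0.33) and Mars2 (-0.19), and under thinning for Farsa at 4 h against 0 h (-0.16) and Ppp1r15b at 8 h against 1 h (0.08). The cause was not tested.

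With the replicate block, 5, 14 and 5 genes were higher and 0 lower at 1 h, 4 h and 8 h against 0 h, 0 differed between the batches, and Aimp2 was -0.50 at 4 h against 0 h. Follicles with the same number share only that number: 10 of 62 pairs had a correlation over 0.1 (median -0.00).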
